A study of Mus musculus with 15 samples.

Results

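The clustered protocadherins are cell adhesion genes that sit side by side on mouse chromosome 18. Protein-coding RefSeq genes were taken whose symbols begin with Pcdha, Pcdhb, Pcdhga, Pcdhgb or Pcdhgc or with Pcdhac and carry the number of a variable exon. This gave 57 of the 21000 protein-coding genes of chromosomes 1 to 19, X and Y, with 14 in the alpha, 22 in the beta and 21 in the gamma cluster. All 57 lie on the plus strand with 1 annotated start site each. In the genome build mm10 they run from the start of Pcdha1 at base 36930285 to the end of the gamma constant exons at base 37841873, a span of 912 kb. The region examined added 100 kb before and 200 kb after that span. The data are a list of H3K27ac peaks from a tumor of a mouse model of fusion-positive rhabdomyosarcoma (FP-RMS), a cancer of skeletal muscle type in which the fusion of PAX3 with FOXO1 (P3F) drives the tumor.

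The series compared 2 tumor models, MCP and TCP, by CUT&RUN, an assay in which a nuclease tethered to an antibody frees the DNA around a chromatin mark. It held 15 libraries, namely 6 MCP and 3 TCP libraries with an antibody to H3K27ac, a mark of active promoters and enhancers, and 3 MCP and 3 TCP libraries with IgG, which gives the background. The single peak list used here belongs to the library MCP H3K27ac 5, so every value below comes from 1 library and there is no replicate check and no comparison between models. MCP tumors carry Myf6-Cre, floxed Cdkn2a on both alleles, the conditional P3F allele at Pax3 on both alleles and the R26-tdTom reporter. Cre from the Myf6 locus, which acts in myogenic cells, turned on P3F and tdTomato and removed Cdkn2a. The labels of this library give no strain, age, sex or tumor number. Live cells were sorted from dissociated tumors, with DAPI as the live/dead marker. The CUT&RUN methods do not say whether tdTomato was also required, so cells of other types can be among them. A peak also cannot tell a strong signal in few cells from a weak signal in many cells.

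Each gene of the alpha and gamma clusters has its own variable first exon with its own promoter, and that exon is spliced to constant exons shared by the cluster. The variable exon encodes the extracellular cadherin repeats, the transmembrane segment and part of the tail, and the constant exons encode the rest of the tail. Beta genes consist of 1 exon and have no constant exons. In neurons each cell uses a small random set of the alternate promoters, and this choice gives the cell a surface code for self-recognition. The choice involves CTCF, cohesin, DNA methylation and distant enhancers that lie near the constant exons and beyond the end of the gamma cluster. The C-type genes, Pcdhac1 and Pcdhac2 in the alpha cluster and Pcdhgc3, Pcdhgc4 and Pcdhgc5 in the gamma cluster, are set apart from the alternate genes and are regulated differently from them.

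The list held 122375 peaks with a median fold enrichment over IgG of 5.22 at the summit (quartiles 4.36 and 6.51) and a median width of 163 bp. The number of fragments over each summit was recovered from the caller's own columns, with a median of 13 and a lowest value of 7. A peak of 13 fragments has an exact Poisson 95% interval of 6.92 to 22.2, so folds of peaks this small carry a wide counting error. Differences between the folds below were not tested. The labelled cell type was checked against its markers. Of the myogenic genes, Pax3 and Myf6 had a promoter peak, and both are loci engineered in MCP mice. Myod1, Myog, Des, Cdh15, Chrna1 and Fgfr4 had none. These are not the whole list of 14 myogenic genes, so they give no share of it. A promoter peak was present at 0 of 14 neuronal, 1 of 14 endothelial (Cd34) and 3 of 14 immune genes (Cd68, Cd14 and Fcer1g), against 45.6% of all protein-coding genes.

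A promoter peak, meaning a peak with at least 1 bp within 2 kb of a start site, was found at 4 of the 57 clustered protocadherins (7.02%, Wilson 95% interval 2.76 to 16.7). Over all protein-coding genes the share was 45.6% (9569 of 21000). The 4 genes were Pcdhga10, Pcdhgc3, Pcdhgc4 and Pcdhgc5, and all of them belong to the gamma cluster. None of the 14 alpha and none of the 22 beta genes had a promoter peak. In the gamma cluster the share was 19% (4 of 21, interval 7.67 to 40). By type, the 3 gamma C-type genes all had one, against 1 of 12 gamma-A genes and 0 of 6 gamma-B genes. With peaks of -log10 q 5 or more only Pcdhgc3 and Pcdhgc4 kept a promoter peak (3.51% of members), against 37.9% of all protein-coding genes. With the strongest 25% of the peaks only Pcdhgc3 did (1.75%), against 29.3%. The alpha C-type genes Pcdhac1 and Pcdhac2 had none. Start sites of neighboring members lay 7.26 kb apart at the median and 4.15 kb apart at the closest, and no promoter window overlapped that of another member, so each promoter peak belonged to 1 gene.

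**Figure D1:**
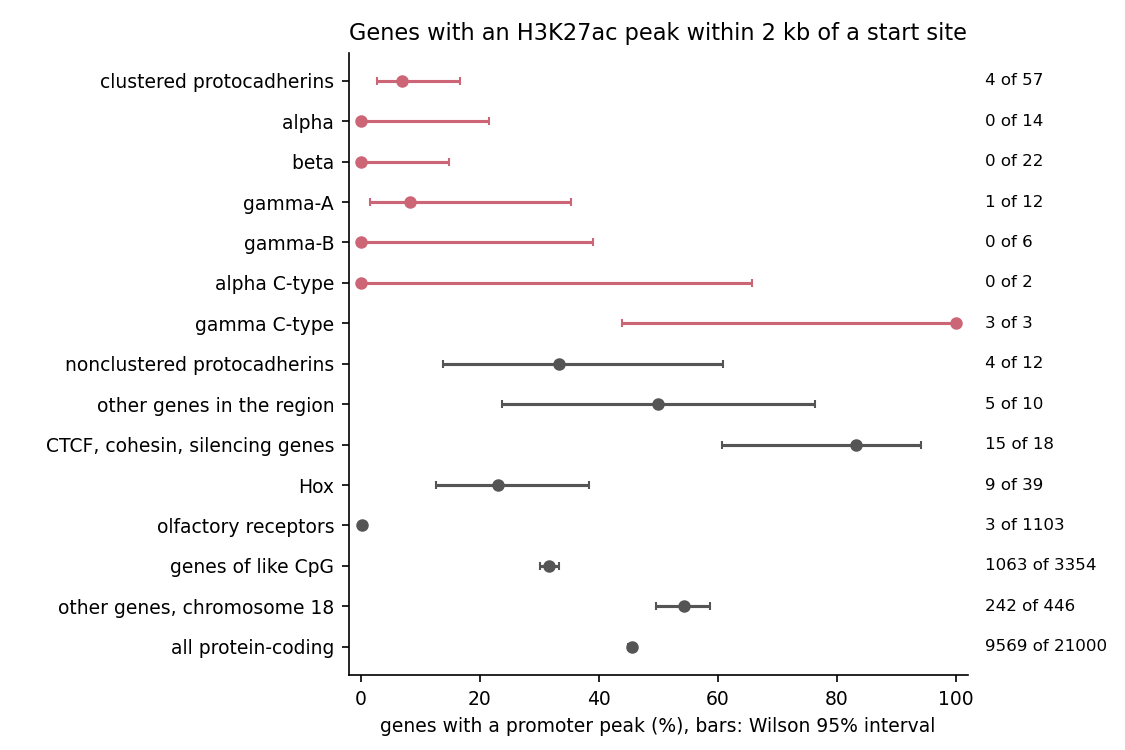
Share of genes with a promoter peak (x axis, percent) in the clustered protocadherins and their types (pink) and in other gene sets (grey). Points give the share in 1 library, bars the Wilson 95% interval over genes, and the numbers at the right the genes with a peak of all genes in the set. The gamma C-type genes stand at 3 of 3 and the alpha and beta genes at 0.

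Pcdhgc3, the first of the gamma C-type genes, carried 5 of the 8 promoter peaks of members. They followed one another from chr18:37806461 to chr18:37807568, with all 5 summits in the first exon and the nearest 0.108 kb after the start site. Their folds were 7.37, 9.96, 3.93, 3.93 and 6.51 in the direction of transcription, on 16, 22, 8, 8 and 14 fragments. The strongest peak, at chr18:37806694-37806864, had an interval of 13.8 to 33.3 fragments, and its fold exceeded that of 95.2% of all peaks. The weakest pair had intervals of 3.45 to 15.8 fragments. Among all genes with a promoter peak, the strongest fold of Pcdhgc3 was above that of 78.9% of the genes, and 15.5% of the genes had 5 or more promoter peaks.

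Pcdhgc4 and Pcdhgc5 had 1 promoter peak each. That of Pcdhgc4 lay before the gene, at chr18:37814499-37814650, with its summit 0.547 kb upstream of the start site, a fold of 4.76 and 15 fragments (interval 8.4 to 24.7). That of Pcdhgc5 lay in the first exon, at chr18:37819638-37819871, with its summit 0.256 kb after the start site, a fold of 4.17 and 13 fragments. The IgG background used by the caller was 2 fragments at both peaks and 1.05 at the Pcdhgc3 peaks. The value of 1.05 was the lowest background in the list and was shared by 47.5% of all peaks, so it need not be a local count. The strongest folds of Pcdhgc4 and Pcdhgc5 were above those of 9.89% and 4.79% of the genes with a promoter peak. Of the 3 genes, Pcdhgc3 had the most promoter peaks and the highest fold, while the fragment interval of its strongest peak overlapped those of the Pcdhgc4 and Pcdhgc5 peaks.

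The peaks did not stop at the C-type first exons. From the start of Pcdhgc3 to the end of the cluster, 35.5 kb held 15 peaks. That is 423 peaks per Mb, 9.42 times the density of the genome (44.9 per Mb). These densities count peaks of any width, and the 5 narrow Pcdhgc3 peaks are among the 15. By bases, the 15 peaks covered 2635 bp of the 35.5 kb, against 36221651 bp of 2725521 kb in the genome. Folds of the 15 peaks ran from 2.9 to 9.96 with a median of 5.35, and their fragments from 8 to 22. The 15.7 kb that span the C-type variable exons held 7 of them (445 per Mb). The other 8 (405 per Mb) lay in the 19.7 kb from the end of the Pcdhgc5 first exon to the cluster end. That span is mostly intron and holds the constant exons. 5 peaks surrounded constant exon 1, at chr18:37825021-37825079. One peak at chr18:37823144-37823260 (fold 4.36, 9 fragments) and one at chr18:37823448-37823538 (fold 6.94, 15 fragments) came before it. The peak at chr18:37824860-37824946 had a fold of 5.35 on 17 fragments, and the next, at chr18:37825067-37825276, overlapped the exon with a fold of 7.66 on 19 fragments. The widest peak of the cluster's 3′ end began just after the exon, at chr18:37825367-37826064, and spanned 698 bp with a fold of 9.53 on 21 fragments (interval 13 to 32.1). It was wider than the 5 Pcdhgc3 peaks, whose widths ran from 81 to 171 bp, and its fragment interval overlapped that of the strongest of them.

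A further group of 3 peaks lay in the intron between constant exons 2 and 3. The peak at chr18:37835250-37835420 had a fold of 4.79 on 10 fragments, that at chr18:37835999-37836184 a fold of 2.9 on 12 fragments, and that at chr18:37836285-37836418 a fold of 8.67 on 19 fragments. The fold of 2.9 was the lowest of the region, and the IgG background there was 3 fragments. No peak lay in constant exon 2 (89 bp) or in constant exon 3 (1971 bp), which closes the gene and holds its 3′ end.

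**Figure D2:**
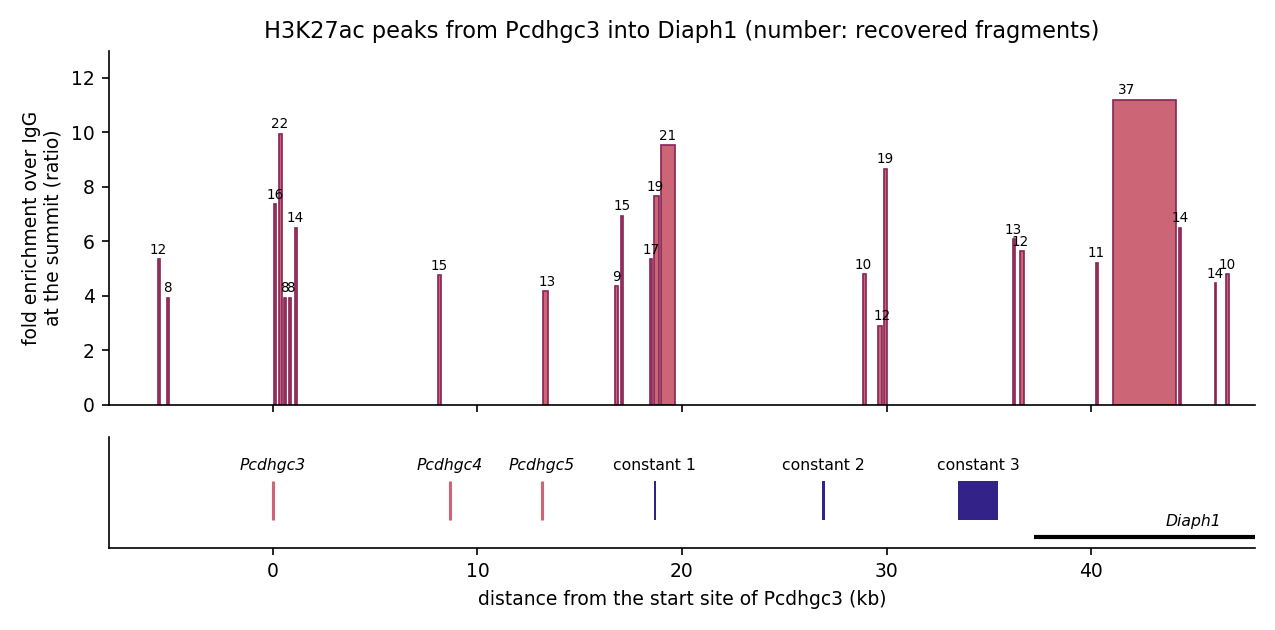
Peaks from 8 kb before to 48 kb after the start of Pcdhgc3, with fold enrichment over IgG at the summit (y axis, ratio) against distance from that start (x axis, kb). Bar widths are peak widths to scale, numbers are recovered fragments, and the lower strip marks the 3 C-type start sites, the 3 gamma constant exons and part of Diaph1. Each C-type start has a peak within 2 kb, and groups of peaks stand at constant exon 1 and between constant exons 2 and 3.

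The only alternate gene with a promoter peak was Pcdhga10, a gamma-A gene. Its peak at chr18:37747268-37747390 lay in the first exon, with the summit 0.306 kb after the start site, a fold of 5.22 and 11 fragments (interval 5.49 to 19.7). That fold equaled the median of the list and was above the strongest fold of 16.6% of the genes with a promoter peak. It was also the only peak in the 107 kb that span the gamma A and B variable exons, where peaks were 0.209 times as dense as in the genome. The neighboring genes Pcdhgb7, Pcdhgb6, Pcdhga11 and Pcdhga9 lay 4.3, 5.23, 8.45 and 10.4 kb from this summit. Pcdhga1, the first gene of the gamma cluster, lay 17.3 kb from its nearest summit, which was at Taf7, and Pcdhga5 was the farthest of the gamma genes at 49.9 kb.

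Between Pcdhga12 and Pcdhgc3, 37.9 kb without a variable exon held 2 peaks, 5.59 and 5.15 kb before the start of Pcdhgc3. The first, at chr18:37800793-37800875, had a fold of 5.35 on 12 fragments. The second, at chr18:37801241-37801327, had a fold of 3.93 on 8 fragments, among the weakest of the region. The density there was 1.18 times that of the genome.

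The alpha and beta clusters lay in a stretch without any peak. It ran from chr18:36802165 to chr18:37643012, a length of 841 kb, and held 40 protein-coding genes. These were all 36 alpha and beta genes, the mitochondrial carrier gene Slc25a2, and the gene models Gm37013, Gm38666 and Gm38667. The gene models begin almost at the start sites of Pcdha4, Pcdha6 and Pcdha7, so they add no separate promoters to the count of 40. Both alpha C-type genes were inside it, and so were the 3 alpha constant exons, which have no peak in or near them, and the 77.3 kb between the alpha and beta clusters. The last peak before the stretch lay 128 kb before the start of Pcdha1, and the first peak after it was at Taf7. By length the stretch ranked 428 in the genome and 15 on chromosome 18. By the number of genes inside, with the gene models counted, it ranked 12 in the genome and 1 on chromosome 18. A rank without the gene models was not computed. The median number of protein-coding genes in the other stretches at least as long was 2. Of the 11 stretches with more genes, 10 were led by olfactory or vomeronasal receptor genes and the other by Defa genes, which encode defensins of the gut. The peaks at both ends had consecutive numbers in the list, and the stretch has no unknown bases in mm10. Reads removed before peak calling leave no trace in these numbers, and their part in the stretch was not tested.

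**Figure D3:**
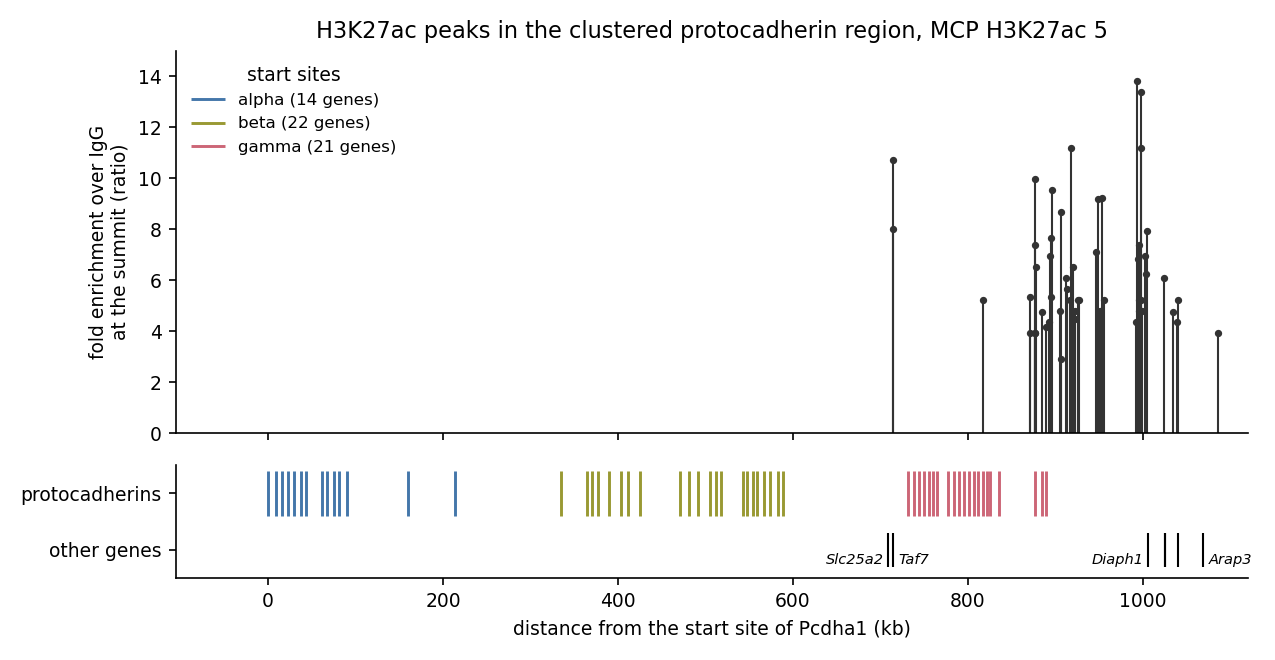
All 52 peaks of the region, with fold enrichment over IgG at the summit (y axis, ratio) against distance from the start of Pcdha1 (x axis, kb). The lower strip marks start sites of alpha (blue), beta (olive) and gamma (pink) genes and of other genes (black). No peak stands over the alpha and beta genes, and 47 of the 52 peaks lie after the start of Pcdhgc3.

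Distances to the nearest summit gave the same picture per gene. They had a median of 151 kb over the 57 members, against 5.85 kb over the other protein-coding genes. Alpha genes lay 128 kb (Pcdha1) to 342 kb (Pcdhac2) from a summit, with a median of 181 kb. Beta genes lay 126 kb (Pcdhb22) to 379 kb (Pcdhb1) from one, with a median of 216 kb. The next farthest genes after Pcdhb1 were Pcdhb2 at 349 kb, Pcdhb3 at 343 kb, Pcdhac2, and Pcdhb4 at 337 kb. Gamma genes had a median of 18.3 kb, and the gamma-A and gamma-B genes alone 23 kb. The 5 nearest were Pcdhgc3 (0.108 kb), Pcdhgc5 (0.256 kb), Pcdhga10 (0.306 kb), Pcdhgc4 (0.547 kb) and Pcdhgb7 (4.3 kb). Pcdhgb7 was the member just outside the 2 kb window, and Pcdhgc4 the farthest inside it. Neighboring genes share the same nearest summit, so these distances are not independent of one another.

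**Figure D4:**
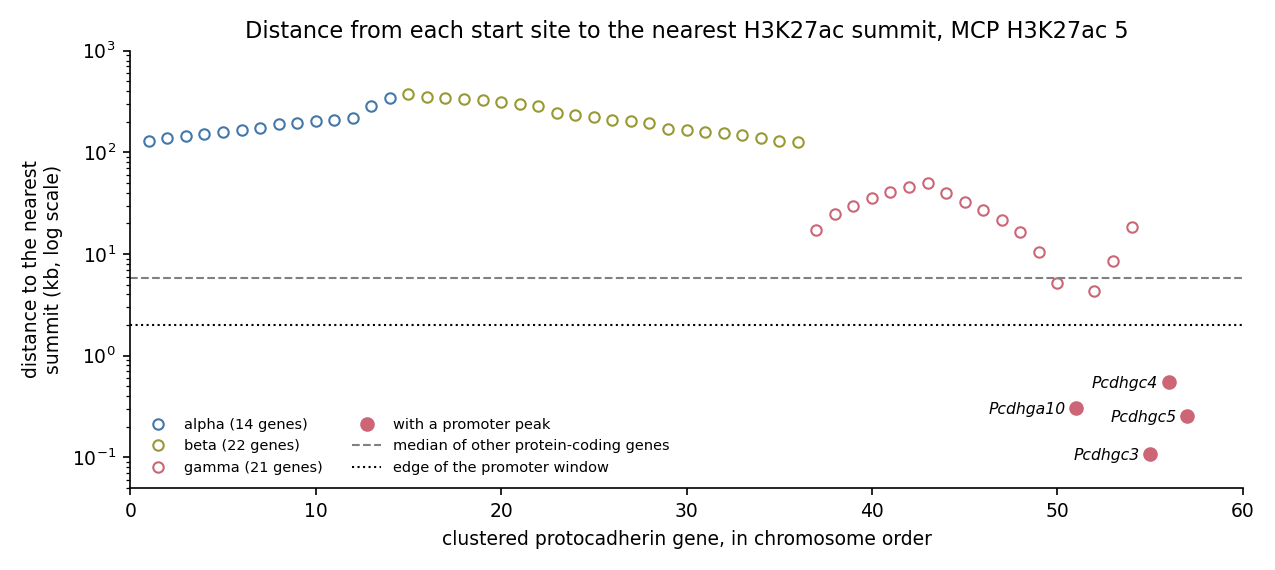
Distance from each of the 57 start sites to the nearest summit (y axis, kb, log scale) for genes in chromosome order (x axis). Filled points have a promoter peak, the dotted line marks the 2 kb window and the dashed line the median of other protein-coding genes (5.85 kb). The 36 alpha and beta genes all lie above 100 kb, and the 4 filled points are Pcdhga10, Pcdhgc3, Pcdhgc4 and Pcdhgc5.

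The flanks differed from each other. The 100 kb before Pcdha1 held no peak, whereas the 200 kb after the gamma constant exons held 32. That is 160 per Mb and 3.56 times the genome, counting peaks of any width. Those 32 peaks covered 15776 bp, and the peaks in the 35.5 kb from the start of Pcdhgc3 covered 2635 bp. By covered bases the flank was thus not less dense than that span, unlike by peak counts. Peaks of the 20 inside the cluster and the 32 after it were alike in strength, with median folds of 5.35 and 5.44. The strongest and widest peaks, however, were after it. The first peaks beyond the cluster lay between its end and Diaph1, 0.736 kb away (chr18:37842580-37842681, fold 6.08, 13 fragments) and 1.07 kb away (chr18:37842913-37843130, fold 5.65, 12 fragments). Diaph1, which encodes a formin that builds actin filaments, runs toward the cluster from the opposite strand, and 23 of the 32 flanking peaks were in its introns.

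3 groups stood out within Diaph1. The widest peak of the region, at chr18:37847484-37850574, covered 3091 bp of intron 6.25 kb after the cluster, with a fold of 11.2 on 37 fragments (interval 26.1 to 51). It was wider than 99.9% of all peaks. Another group began 35 kb after the cluster and included chr18:37877628-37880217 (2590 bp, fold 9.18, 30 fragments) and chr18:37883820-37884541. The latter had the most fragments of the region, 51 (interval 38 to 67.1), but over an IgG background of 4 fragments, so that its fold was 9.22. The last group, 81.8 to 86.7 kb after the cluster at its strongest peaks, held the highest folds of the region. These were 13.8 on 31 fragments at chr18:37923473-37924322, 13.4 on 30 fragments at chr18:37927687-37927896 and 11.2 on 25 fragments at chr18:37928013-37928952. The fold of 13.8 exceeded that of 99.2% of all peaks. The lower bounds for the peaks with 31, 37 and 51 fragments (21.1, 26.1 and 38) lay above the 13 fragments of the median peak. These peaks were picked for the highest fold, width and fragment count of the region, and the intervals do not account for that choice. This last group is nearer to the Diaph1 start site than to any protocadherin, and the list does not say which gene an intronic peak acts on. Known long-range enhancers of beta and gamma protocadherins lie beyond the end of the gamma cluster, but their positions were not used here and no peak was assigned to one.

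Other genes of the region had promoter peaks more often than the protocadherins, in 5 of 10 (50%). The 10 include the gene models Gm37013, Gm38666 and Gm38667, which start almost at the start sites of Pcdha4, Pcdha6 and Pcdha7. These promoters without a peak are thus counted on both sides. Taf7, which encodes a subunit of the general transcription factor TFIID, lies between the beta and gamma clusters and had peaks at chr18:37643013-37644096 (fold 8, 26 fragments) and chr18:37644395-37644682 (fold 10.7, 35 fragments). These were the only peaks in the 140 kb between both clusters. Slc25a2, which lies 5.3 kb from the nearest Taf7 summit, had none. Diaph1 had 2 promoter peaks, the stronger with a fold of 7.92 on 19 fragments. Hdac3, a histone deacetylase gene, and Rell2 share 1 peak (fold 6.08, 13 fragments), which lies inside Hdac3 near its start site and within 2 kb of both start sites, and Fchsd1 had 2 (strongest fold 5.22, 11 fragments). Arap3 had none, nor did the gene models Gm37013, Gm38666 and Gm38667. Over all protein-coding genes of chromosome 18 that are no members, these 10 included, the share was 54.3% (242 of 446). On the whole chromosome peaks were 0.936 times as dense as in the genome.

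Promoters rich in CpG dinucleotides carried peaks more often across the genome, so the CpG content of the members was measured. Within 500 bp of the start site, members held a median of 29 CpG (quartiles 17 and 38), against 46 for other genes. Of the 57 members, 53 fell in the lower 5 deciles of CpG count, where the share of genes with a promoter peak rose from 5.13% in the first to 50.1% in the fifth. Other genes with 17 to 38 CpG had a promoter peak in 31.7% (1063 of 3354, interval 30.1 to 33.3). Weighted by the members' own deciles, the share of other genes was 34.5%, against 7.02% in members. The median was 37.5 CpG in alpha, 33 in gamma and 15 in beta genes. Pcdhac2 had the most, 69, and no peak within 342 kb, while Pcdhgc3 had 68 and 5 promoter peaks. Pcdhgc5 had a promoter peak with 17 CpG, as few as the lower quartile, and Pcdhgc4 and Pcdhga10 had 42 and 40, close to Pcdhgb7 with 40 and Pcdhga11 with 48, which had none.

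**Figure D5:**
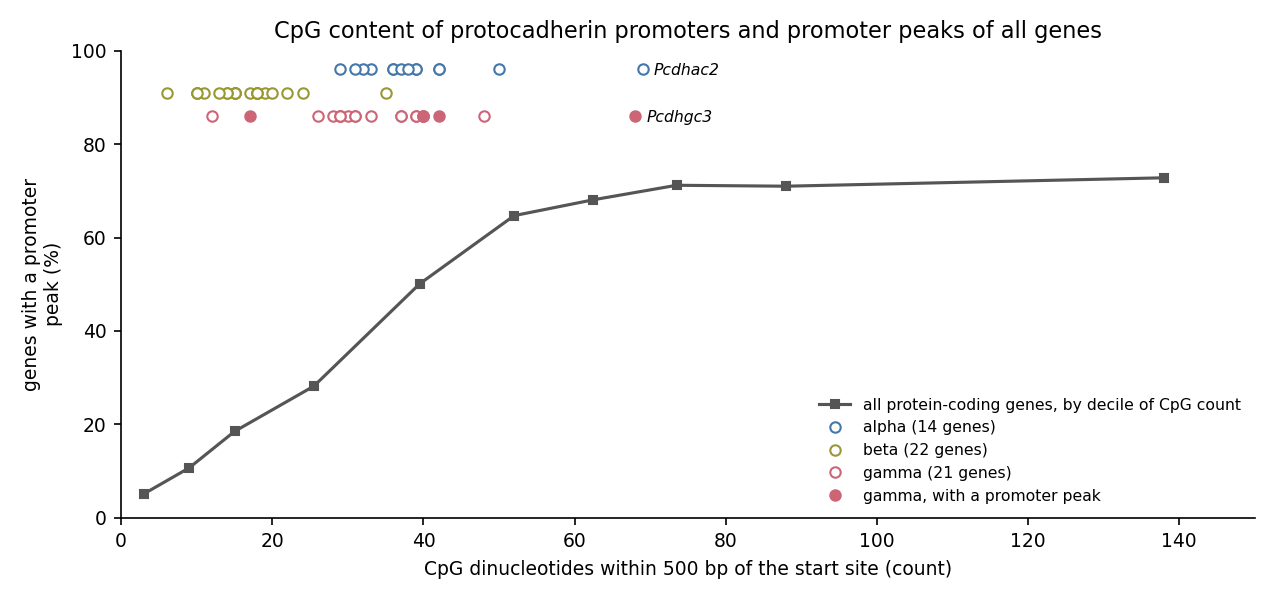
Share of all protein-coding genes with a promoter peak (squares, y axis in percent) by decile of the CpG count within 500 bp of the start site (x axis), each square at the middle of its decile. Circles at the top show the CpG counts of the 57 members at arbitrary heights by cluster, filled where the gene has a promoter peak. Most members lie on the rising part of the curve, and Pcdhac2 (69 CpG, no peak) and Pcdhgc3 (68 CpG, with peaks) have nearly equal counts.

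Protocadherins resemble one another in sequence, and the study's methods describe a limit of 2 places per read, although it is not settled whether this limit applied to the list. Each 32-base word of the promoter windows was looked up in mm10. In members 91.4% of the words occurred once and 4.62% more than 2 times, against 95.4% and 3.48% in the windows of 436 other genes of chromosome 18. The share of words found more than 2 times was 8.05% in alpha, 5.02% in beta and 1.91% in gamma windows. The lowest share of words found once in any member was 77.6%, in Pcdhb9, and the highest share found more than 2 times was 14.2%, in Pcdhb15. Over the whole 912 kb span of the cluster 79.2% of the words occurred once and 18% more than 2 times. Repeats were measured over the spans of the variable exons, which include the DNA between the exons. They took up more of the alpha span (43.9% of bases soft-masked) and the beta cluster (38%) than of the gamma A and B (15.6%) and gamma C spans (17.4%). The GC content of the same spans was 40.3%, 40.4%, 45% and 49.7% in the same order. The part of repeated words, repeats and GC content in the number of peaks was not tested.

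The 12 nonclustered protocadherins, relatives with their own loci, had promoter peaks in 4 cases (33.3%, interval 13.8 to 60.9), an interval that holds the 45.6% of all protein-coding genes. Pcdh17 on chromosome 14 had 5 promoter peaks with a strongest fold of 10.8 on 24 fragments, close to the values of Pcdhgc3. Pcdh12, an endothelial protocadherin, had 2 (strongest fold 6.08), as did Pcdh7 (5.22), and Pcdh9 had 1 (5.13). Pcdh19 missed the window with a summit 2.97 kb away. Pcdh1, which lies beyond the clusters on chromosome 18, had its nearest summit at 19.2 kb, and Pcdh20 at 76 kb. Pcdh18, Pcdh8 and Pcdh15 were 171, 183 and 841 kb from a summit. Pcdh11x and Pcdh10 were 2106 and 3616 kb from one. Like Pcdh15, they were farther from a summit than any clustered member.

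Genes whose products take part in protocadherin promoter choice were listed as well. They comprise CTCF, subunits and partners of cohesin, which forms chromatin loops, DNA methyltransferases, and silencing factors. Of these 18 genes, 15 had a promoter peak (83.3%, interval 60.8 to 94.2), against the background of 45.6%. The count was 10 of 18 (55.6%) with a window of 500 bp, against 36.3% of all protein-coding genes. It was 12 of 18 (66.7%) with only the most upstream start site, against 44.3%. The highest folds were at the cohesin gene Stag1 (12.2), Rest, a repressor of neuronal genes (11.8), Dnmt1, the maintenance DNA methyltransferase (11.7), Ctcf (10.4), the cohesin release factor Wapl (9.96) and Pds5a (9.53). Dnmt3b, Setdb1 and Pds5b had no promoter peak, with summits 16.5, 32.9 and 7.75 kb away. The regulators had a median of 108 CpG near the start site, which falls in the highest decile, where 72.8% of all genes had a promoter peak. That share lies inside the regulators' interval.

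The members were also set beside other clustered gene families. The 39 Hox genes, which specify position along the body, had a promoter peak in 9 cases (23.1%, interval 12.6 to 38.3), and 3 of 1103 olfactory receptor genes did (0.272%). The protocadherin share of 7.02% lay between the shares of these families, and its interval overlapped that of the Hox genes. Olfactory receptor genes had a median of 5 CpG near the start site and Hox genes 49, against 29 in the protocadherins.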

How the data were processed

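H3K27ac CUT&RUN of MCP and TCP tumors was profiled in 15 libraries, and the peak list of MCP H3K27ac 5 was analyzed. In the study's methods the authors mapped read pairs to mm10 with bowtie, kept reads that mapped to at most 2 places, removed reads in problematic regions, and called peaks with MACS against the IgG library. The submitters' processing notes name BWA, SAMtools, MACS2, mm10 and dm6 instead, and the sources used here do not settle which pipeline made the list. The deposited list has a score per peak, equal to the whole part of 10 times the -log10 q in 100% of the peaks. It gives the fold enrichment at the summit, a ratio over the IgG background that the authors' caller computed. The deposited -log10 p and -log10 q values were used to recover fragments and to filter peaks. The largest q was 0.0471.

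Fragments over each summit were recovered as the whole number that solves the fold and the -log10 p together within 0.01. The scale between the libraries was 0.884 and multiplied the H3K27ac fragments, while the IgG background was not scaled. A solution was found for 100% of the peaks, and for 1.91% with a scale 3% off. The recovered fragments are inferences from the caller's formula, fragments are not independent molecules, and Poisson and Wilson intervals cover counting error only. Peak numbers run to 122959 with 584 absent, none of them in the region.

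Start sites were those of curated RefSeq transcripts (GRCm38), and a promoter peak overlapped 2 kb either side of one by at least 1 bp. The members and gene lists were chosen with earlier results of these data known, and no p-value was computed, since there is 1 library. Named were members with a promoter peak, the 5 nearest to and 5 farthest from a summit, the ends of each cluster, C-type genes, other genes of the region, nonclustered protocadherins, up to 6 regulators by fold with those lacking a peak, and the 10 peaks of highest fold. Other members and peaks were named after their values were seen, where they adjoin these. Python 3.11.15 with numpy 2.4.6, pandas 2.3.3, scipy 1.17.1, numba 0.67.0 and matplotlib 3.10.9 was used, and fragment recovery, overlaps and word counts were tested on simulated data. Alternatives were other window widths, the summit in the window, stricter peak thresholds, 1 start site per gene and other start site annotations. One result of the myogenic marker list is not reported here.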

Additional observations from a re-analysis of the deposited data

How the results depend on the processing

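No paired analysis was possible because the values come from 1 library and from no test. Of 75 values under an alternative, 61 stayed within 1.5 times the reported one. The 61 include the alpha and beta counts of 0. No alternative could change these, since every alpha and beta start site lay at least 126 kb from a summit. The 61 also include member counts and distances with only the most upstream start site, which could not change because each member has 1 start site. With windows of 1 kb, 500 bp or with the summit in the window, the same 4 members had a promoter peak. With 5 kb Pcdhgb7 joined them, while the alpha and beta counts were 0 throughout. Over all protein-coding genes the share was 43.5%, 36.3%, 45.4% and 49.1% in the same order. Start sites of GENCODE M21 (where Pcdha10 had no match by symbol) or of predicted RefSeq transcripts, both chosen after seeing the data, gave the same 4. A -log10 q threshold of 5 left 2 members, both gamma (Pcdhgc3 and Pcdhgc4), 2 nonclustered protocadherins, 28 peaks in the region and 7955 protein-coding genes (37.9%). The strongest 25% of the peaks left 1 member, the gamma gene Pcdhgc3, with 1 nonclustered protocadherin, 2 other genes of the region, 20 peaks in the region, 6160 protein-coding genes (29.3%) and 619 of those with like CpG content (18.5%). Under that threshold peaks in the cluster span were 0.769 times as dense as in the genome, against 0.489 for all peaks. A window of 500 bp left 3 of the 10 other genes of the region, against 36.3% of all protein-coding genes. Without flanks the region held 20 peaks. These thresholds keep fewer peaks by construction. The promoter peaks of Pcdhga10, Pcdhgc5 and Pcdhgc4, at 11, 13 and 15 fragments, thus depend on the threshold, and at this depth a gene without a peak may still carry signal below it.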
